A study of Mus musculus with 26 samples.

Results

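The mouse Cyp2c genes encode cytochromes P450 of the endoplasmic reticulum and lie side by side on chromosome 19. The genes described here were chosen by name, as the rows of the deposited gene count table whose symbol was Cyp2c29, Cyp2c37, Cyp2c38, Cyp2c39, Cyp2c50, Cyp2c54, Cyp2c55, Cyp2c68, Cyp2c69 or Cyp2c70, which gave 10 of 54532 genes. All 10 were among the 14415 genes with enough reads to be tested. The data are read counts per gene from liver RNA of 26 C57BL/6 mice, each library from a separate mouse, with 5433074 to 9088626 counts per library (median 7105531). Mice were gavaged on 3 consecutive days with benoxacor, a herbicide safener, and livers were taken 24 hours after the last gavage; the labels give no sex. The doses of 0, 0.5, 5 and 50 mg/kg held 5, 5, 8 and 8 mice. The mouse numbers in the sample titles form 2 runs, from 619 (1, 2, 4 and 4 mice at 0, 0.5, 5 and 50 mg/kg) and from 601 (4, 3, 4 and 4 mice). What separates the runs is not stated in the labels. Within each run the numbers go up with the dose, so dose and anything else that follows that order cannot be told apart.

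CYP2C enzymes are monooxygenases that take electrons from the reductase encoded by Por. In mouse liver they oxidise drugs and other foreign chemicals, and several convert arachidonic acid to epoxides or hydroxylated acids. Expression of family members is known to respond to the nuclear receptors CAR (Nr1i3) and PXR (Nr1i2), with HNF4A keeping basal levels in hepatocytes. Cyp2c70 differs from its neighbours in role, since in mice it makes muricholic acids, a class of bile acids.

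From the first member to the last the cluster spans chr19:39007019-40187333 in GENCODE M21 on mm10, which is 1180 kb. In chromosomal order the members are Cyp2c55, Cyp2c29, Cyp2c38, Cyp2c39, Cyp2c68, Cyp2c69, Cyp2c37, Cyp2c54, Cyp2c50 and Cyp2c70, with 5 on each strand. Cyp2c65, Cyp2c66, Cyp2c53-ps, Cyp2c67 and Cyp2c40 lie between them, and Cyp2c23 lies apart, from 44005022 to 44029208. The coding sequences fall into groups of close copies. Cyp2c37 and Cyp2c50 were 96.1% identical, Cyp2c54 and Cyp2c50 95.2%, and Cyp2c38 and Cyp2c39 94.2%, each over 1470 bases without the stop codon. The closest copy of Cyp2c68 was Cyp2c40 (98.1% over 1473 bases), as it was for Cyp2c69 (97.9%). By the same measure Cyp2c29 was 89.5% identical to Cyp2c39, and Cyp2c55 was 77.4% identical to Cyp2c29. Cyp2c70 stood furthest off, at 69.5% to its closest gene, Cyp2c66.

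How far reads could be confused follows from these copies. Of all stretches of 100 bases in a member's transcript, the share found letter for letter in another Cyp2c transcript was 36.3% for Cyp2c69, 19.8% for Cyp2c68, 9.40% for Cyp2c50, 7.59% for Cyp2c54 and 4.70% for Cyp2c37, and 0 for Cyp2c29, Cyp2c38, Cyp2c39, Cyp2c55 and Cyp2c70. With stretches of 50 bases the share was 54.8% for Cyp2c69, 43.3% for Cyp2c68, 30.7% for Cyp2c50, 30.1% for Cyp2c37 and 25.7% for Cyp2c54. It was 11.4% for Cyp2c39 and 7.45% for Cyp2c38, mostly with each other, 2.08% for Cyp2c29, 0.51% for Cyp2c55 and still 0 for Cyp2c70. Cyp2c67 was also close, with coding sequence 97.7% identical to Cyp2c69 and 97.1% to Cyp2c68. Cyp2c69 and Cyp2c68 counts are therefore uncertain to the extent that reads shared with Cyp2c40, Cyp2c67 or each other were split or dropped. The exons of Cyp2c29 overlap those of the pseudogene Cyp2c53-ps on the same strand.

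The start regions of 6 members are shown because they set the related genes Cyp2c37 and Cyp2c50, and Cyp2c68 and Cyp2c69, beside Cyp2c29 and the divergent Cyp2c70. Each is the 250 bases before the RefSeq start site on GRCm38.p6, read 5′ to 3′ on the gene's strand. Capitals mark the TATA box letters TATAAA, the half-site of many nuclear receptors, AGGTCA, the box with letters CCAAT, and the sequence CAAAGTCCA, which HNF4A is known to bind, each searched on both strands.
Cyp2c29 (chr19:39286835-39287084, plus strand): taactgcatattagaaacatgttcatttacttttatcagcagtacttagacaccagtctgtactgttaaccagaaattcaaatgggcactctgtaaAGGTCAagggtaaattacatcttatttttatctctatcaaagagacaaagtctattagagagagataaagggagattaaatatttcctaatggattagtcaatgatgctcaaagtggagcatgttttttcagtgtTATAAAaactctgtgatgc
Cyp2c37 (chr19:39992174-39992423, plus strand): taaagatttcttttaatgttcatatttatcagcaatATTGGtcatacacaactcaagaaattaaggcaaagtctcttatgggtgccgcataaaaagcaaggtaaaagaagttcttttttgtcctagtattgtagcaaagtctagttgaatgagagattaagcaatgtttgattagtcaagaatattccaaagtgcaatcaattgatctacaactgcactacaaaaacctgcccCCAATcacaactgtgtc
Cyp2c50 (chr19:40089429-40089678, plus strand): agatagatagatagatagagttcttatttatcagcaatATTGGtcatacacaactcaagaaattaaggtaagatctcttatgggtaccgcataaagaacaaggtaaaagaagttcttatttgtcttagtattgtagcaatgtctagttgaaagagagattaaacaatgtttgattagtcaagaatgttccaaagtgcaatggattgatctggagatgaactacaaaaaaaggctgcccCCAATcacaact
Cyp2c68 (chr19:39741102-39741351, minus strand): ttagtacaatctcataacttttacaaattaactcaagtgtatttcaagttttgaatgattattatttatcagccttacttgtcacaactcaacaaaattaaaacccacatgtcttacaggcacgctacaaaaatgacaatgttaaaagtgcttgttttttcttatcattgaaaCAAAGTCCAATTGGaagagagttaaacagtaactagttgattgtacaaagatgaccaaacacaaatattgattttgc
Cyp2c69 (chr19:39886770-39887019, minus strand): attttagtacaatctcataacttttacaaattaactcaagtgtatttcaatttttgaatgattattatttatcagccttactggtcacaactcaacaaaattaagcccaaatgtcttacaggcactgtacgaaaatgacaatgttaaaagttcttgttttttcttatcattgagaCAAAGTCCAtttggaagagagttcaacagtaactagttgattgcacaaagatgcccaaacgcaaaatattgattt
Cyp2c70 (chr19:40187287-40187536, minus strand): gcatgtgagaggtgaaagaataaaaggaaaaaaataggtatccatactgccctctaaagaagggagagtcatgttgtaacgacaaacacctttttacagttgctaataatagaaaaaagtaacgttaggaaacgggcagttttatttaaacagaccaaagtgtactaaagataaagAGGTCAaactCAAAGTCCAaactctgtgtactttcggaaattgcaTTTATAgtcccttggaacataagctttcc

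In these windows TATAAA began at -29 in Cyp2c70, where it reads TTTATA on the gene's strand, and at -19 in Cyp2c29. AGGTCA began at -154 in Cyp2c29 and at -74 in Cyp2c70. Over the 10 start windows in the table, which cover 9 of the 10 members (2 windows for Cyp2c39, none for Cyp2c54), TATAAA was found in 4, CCAAT in 4, AGGTCA in 3 and CAAAGTCCA in 3, the last in Cyp2c68, Cyp2c69 and Cyp2c70. Of 32851 windows of the same length over all genes, 12.4% held TATAAA, 33.8% CCAAT, 14.02% AGGTCA and 0.384% CAAAGTCCA. In Cyp2c68 the CAAAGTCCA match overlaps a CCAAT match. RefSeq and GENCODE start sites differ for some members. Cyp2c70 starts at 40187286 in RefSeq and at 40187333 in GENCODE, so its TATAAA match lies inside the GENCODE gene. Cyp2c29 starts at 39287085 in RefSeq and its outermost GENCODE start is 39269405, so its whole window lies inside the GENCODE gene. The Cyp2c39 window that holds AGGTCA has its RefSeq start at 39347346, far from the GENCODE start at 39510862. The windows of Cyp2c68 and Cyp2c69 were 94.3% identical over 246 aligned bases and those of Cyp2c37 and Cyp2c50 88.4% over 242, so matches within a set of copies are not separate observations.

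The genes differed widely in level. Per kb of the coding transcript, Cyp2c29 averaged 626 CPM (CPM are counts scaled to library size by TMM) over the 26 mice, Cyp2c50 509, Cyp2c70 398, Cyp2c54 224, Cyp2c37 162 and Cyp2c68 145. Far below came Cyp2c38 with 8.83 CPM per kb, Cyp2c69 with 8.32, Cyp2c55 with 2.40 and Cyp2c39 with 0.689. Neighbours in this order overlapped in their ranges over mice, except that the 6 higher genes had no mouse below 66.4 CPM per kb and the 4 lower genes none above 29.5. Cyp2c50 and Cyp2c70 changed places (316 and 345 CPM per kb) when all annotated exons set the length. Cyp2c39, at 2 to 23 reads per library, is the least precisely measured. Together the 10 genes held 0.277% to 0.481% of all counts in a library. The 8 hepatocyte markers (Alb, Ttr, Apoa1 and others) summed to 45569.9 CPM or more in every library, as liver should.

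**Figure D1:**
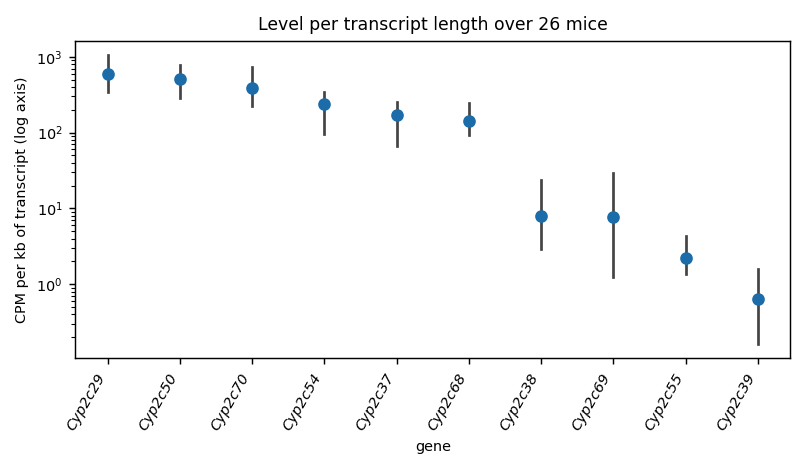
Level of each Cyp2c gene in CPM per kb of transcript (log axis) over 26 mice; the point is the median and the line runs from the lowest to the highest mouse. The 6 higher genes stay above 66.4 CPM per kb and the 4 lower ones below 29.5.

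No member passed an adjusted p of 0.05 at any dose when all 26 mice were fitted with dose and run. At 0.5 against 0 mg/kg 9 of the 10 genes had a positive log2 fold change (median 0.50, against 0.005 for all 14415 genes), at 5 against 0 mg/kg 7 did (median 0.26, against 0.012) and at 50 against 0 mg/kg 8 did (median 0.42, against 0.0054). Of all genes tested, 50.8%, 51.9% and 51.1% were positive at these doses. These comparisons share the 0 mg/kg mice. With the run from 619 fitted alone, 4, 3 and 1 of the 10 were positive at 0.5, 5 and 50 against 0 mg/kg (medians -0.10, -0.058 and -0.14). With the run from 601 alone 9, 9 and 8 were (medians 0.55, 0.46 and 0.68). In the fit of all mice Cyp2c29, Cyp2c50 and Cyp2c54 had the smallest p-values at 0.5 and at 50 mg/kg, and Cyp2c69 and Cyp2c70 had negative values at 50 mg/kg.

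The background of these counts was low. With edgeR's quasi-likelihood fit and p-values adjusted after Benjamini and Hochberg, 0% of all genes tested were called at 0.5 against 0 mg/kg, none, or 0%, at 5 against 0 mg/kg, 0.00694% at 50 against 0 mg/kg (1 gene, Zbtb16) and 0% at 50 against 5 mg/kg. For any difference among the 4 doses it was 0.00694%, again 1 gene. Counted by an unadjusted p under 0.05, 1008, 891, 737 and 699 genes passed in these 4 comparisons, and DESeq2 called 7, 4, 3 and 0. At that unadjusted threshold with a positive change, the members numbered 3 of 10 at 0.5 against 0 mg/kg, where 3.79% of all genes did so. They numbered 0 of 10 at 5 against 0 mg/kg (2.73% of all genes) and 3 of 10 at 50 against 0 mg/kg (2.54%). For any dose difference 3 of 10 had an unadjusted p under 0.05, against 5.7% of all genes. The 3 were Cyp2c29, Cyp2c50 and Cyp2c54 each time. Of these, 2 are close copies, and this threshold was taken up after their values were seen. Among other lists, 2 of 8 hepatocyte markers and 6 of 7 acute phase genes also passed it with a positive change at 0.5 against 0 mg/kg. Of 10 pericentral, 8 periportal and 6 bile acid enzyme genes 0 did. In the same comparison 1 of 2 CAR and PXR targets and 1 of 5 epoxide handling and Cyp2j genes did. At 50 against 0 mg/kg 0 hepatocyte, acute phase, pericentral, periportal or epoxide handling and Cyp2j genes did. There 1 of 2 CAR and PXR targets and 1 of 6 bile acid enzymes did. Of 12 regulators and electron partners 0 did at either dose.

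**Figure D2:**
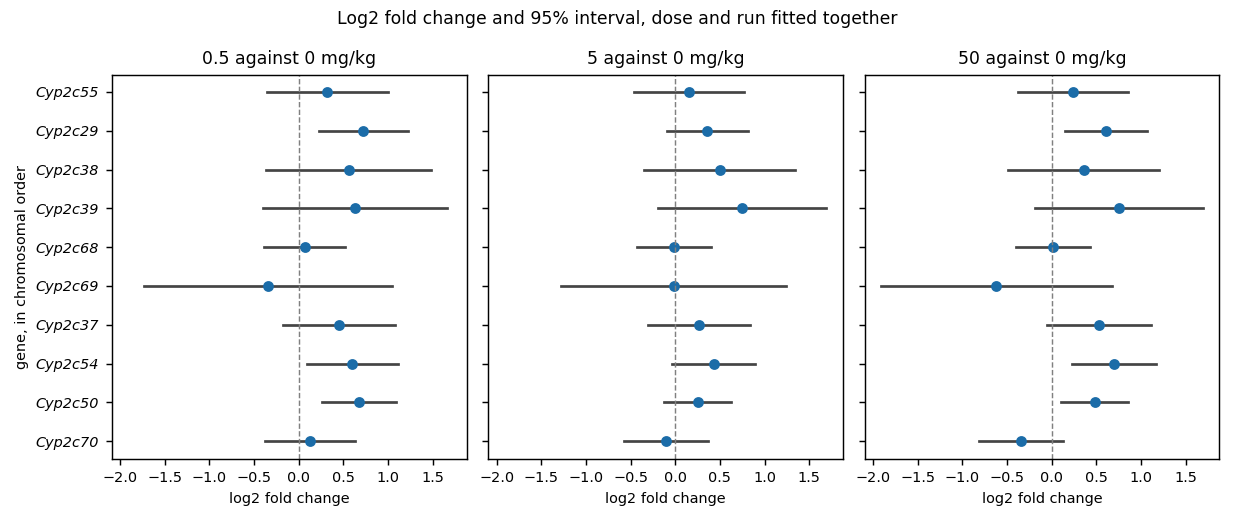
Log2 fold change of each Cyp2c gene at 0.5, 5 and 50 mg/kg against 0 mg/kg, with 95% intervals, from the fit of dose and run over 26 mice. Intervals of Cyp2c29, Cyp2c50 and Cyp2c54 lie above 0 at 0.5 and 50 mg/kg; no gene passed an adjusted p of 0.05.

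Cyp2c29, an arachidonic acid epoxygenase known as a CAR target in mice, was the most abundant member. It had 616, 759, 1075, 769 and 856 CPM in the 0 mg/kg livers. At 0.5 mg/kg it had 845, 1679, 1099, 1852 and 1221 CPM. At 5 mg/kg the lowest, median and highest were 690, 1013 and 1373 CPM, and at 50 mg/kg 742, 1177 and 1874. Most dosed mice lay above the 0 mg/kg median of 769 CPM, but every dose overlapped the controls. The log2 fold change was 0.72 (SE 0.24, adjusted p 0.502) at 0.5 against 0 mg/kg and 0.36 (SE 0.22, adjusted p 0.780) at 5 mg/kg. It was 0.61 (SE 0.22, 95% interval 0.15 to 1.07, adjusted p 0.868) at 50 mg/kg.

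Cyp2c38 and Cyp2c39 are the closest coding relatives of Cyp2c29 in this set and were far lower; Cyp2c39 is known in mice to hydroxylate retinoic acid. Cyp2c38 averaged 18.97 ± 8.43, 28.6 ± 9.43, 27.7 ± 18.1 and 24.9 ± 12.4 CPM at 0, 0.5, 5 and 50 mg/kg (SD, n = 5, 5, 8 and 8). Replicate 6 at 5 mg/kg held the highest value, 68.3 CPM. Cyp2c39 averaged 0.767 ± 0.495, 1.27 ± 0.497, 1.41 ± 0.839 and 1.39 ± 0.695 CPM in the same order. Their log2 fold changes at 50 against 0 mg/kg were 0.36 (SE 0.41) and 0.75 (SE 0.46), both with intervals across 0. With Cyp2c29, Cyp2c38 and Cyp2c39 summed before the fit, the value was 0.60 (SE 0.23, adjusted p 0.882), which is set by Cyp2c29.

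Cyp2c50, Cyp2c54 and Cyp2c37 form the second set of close copies and lie next to each other; all metabolise arachidonic acid in mice. Cyp2c50 had 573, 629, 724, 515 and 1103 CPM in the 0 mg/kg livers. At 0.5 mg/kg it had 937, 1433, 1188, 1209 and 892 CPM. The lowest, median and highest were 625, 849 and 1009 CPM at 5 mg/kg and 731, 987 and 1231 at 50 mg/kg. A single 0 mg/kg mouse, the only one of the run from 619, reached 1103 CPM, while the other 4 lay at or below 724. The log2 fold change was 0.67 (SE 0.20, 95% interval 0.26 to 1.08, adjusted p 0.492) at 0.5 against 0 mg/kg, 0.25 (SE 0.18, adjusted p 0.793) at 5 and 0.48 (SE 0.18, adjusted p 0.877) at 50 mg/kg.

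Cyp2c54 had 241, 230, 305, 170 and 487 CPM in the 0 mg/kg livers, again with the run-619 mouse highest. At 0.5 mg/kg it had 348, 550, 510, 398 and 366 CPM. The lowest, median and highest were 222, 427 and 491 CPM at 5 mg/kg and 314, 478 and 609 at 50 mg/kg. Every dose overlapped the controls, which spanned 170 to 487 CPM. The log2 fold change was 0.60 (SE 0.25, adjusted p 0.624) at 0.5 against 0 mg/kg, 0.43 (SE 0.23, adjusted p 0.780) at 5 and 0.70 (SE 0.23, 95% interval 0.22 to 1.17, adjusted p 0.802) at 50 mg/kg. Cyp2c37 averaged 232 ± 97.6, 318 ± 83.2, 280.0 ± 107 and 338 ± 89.2 CPM at 0, 0.5, 5 and 50 mg/kg (SD, n = 5, 5, 8 and 8). Its log2 fold change at 50 against 0 mg/kg was 0.53 (SE 0.28, adjusted p 0.979). The sum of the 3 genes gave 0.62 (SE 0.22, adjusted p 0.557) at 0.5 and 0.54 (SE 0.21, adjusted p 0.882) at 50 mg/kg.

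Cyp2c68 and Cyp2c69 did not have positive values of this size in the fit of all mice. Cyp2c68 averaged 243 ± 60.6, 257 ± 37.6, 246 ± 83.7 and 252 ± 56.8 CPM at 0, 0.5, 5 and 50 mg/kg (SD, n = 5, 5, 8 and 8). Its log2 fold change at 50 against 0 mg/kg was 0.018, with a 95% interval from -0.40 to 0.43. This value also differed between the runs, at 0.13 with the run from 601 alone and -0.38 with the run from 619 alone. Without the single 0 mg/kg mouse of the run from 619, which had 342 CPM, it was 0.17. Cyp2c69 ranged from 2.07 to 48.6 CPM over the mice, 23.5-fold, which was the widest range of the 10 genes. Both extremes were at 5 mg/kg in the run from 619. Its log2 fold change at 50 against 0 mg/kg was -0.62 (SE 0.62), and the sum with Cyp2c68 gave -0.014 (SE 0.21). That sum is mostly Cyp2c68 and leaves out the close copies Cyp2c40 and Cyp2c67, which averaged 26.9 and 299 CPM.

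Cyp2c55, an arachidonic acid hydroxylase expressed mainly outside the liver in mice, stayed between 2.70 and 8.61 CPM. Its log2 fold change at 50 against 0 mg/kg was 0.23 (SE 0.30). Cyp2c70, the muricholic acid enzyme, had 806, 795, 397, 822 and 780.4 CPM in the 0 mg/kg livers. At 0.5 mg/kg it had 886, 1241, 703, 581 and 548 CPM. The lowest, median and highest were 430, 704 and 970 CPM at 5 mg/kg and 382, 617 and 784 at 50 mg/kg. The controls spanned 397 to 822 CPM and the mice at 50 mg/kg 382 to 784 CPM, so these groups overlapped. The log2 fold change was 0.13 (SE 0.25) at 0.5 against 0 mg/kg, -0.10 (SE 0.23) at 5 and -0.35 (SE 0.23, 95% interval -0.81 to 0.12, adjusted p 0.987) at 50 mg/kg.

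**Figure D3:**
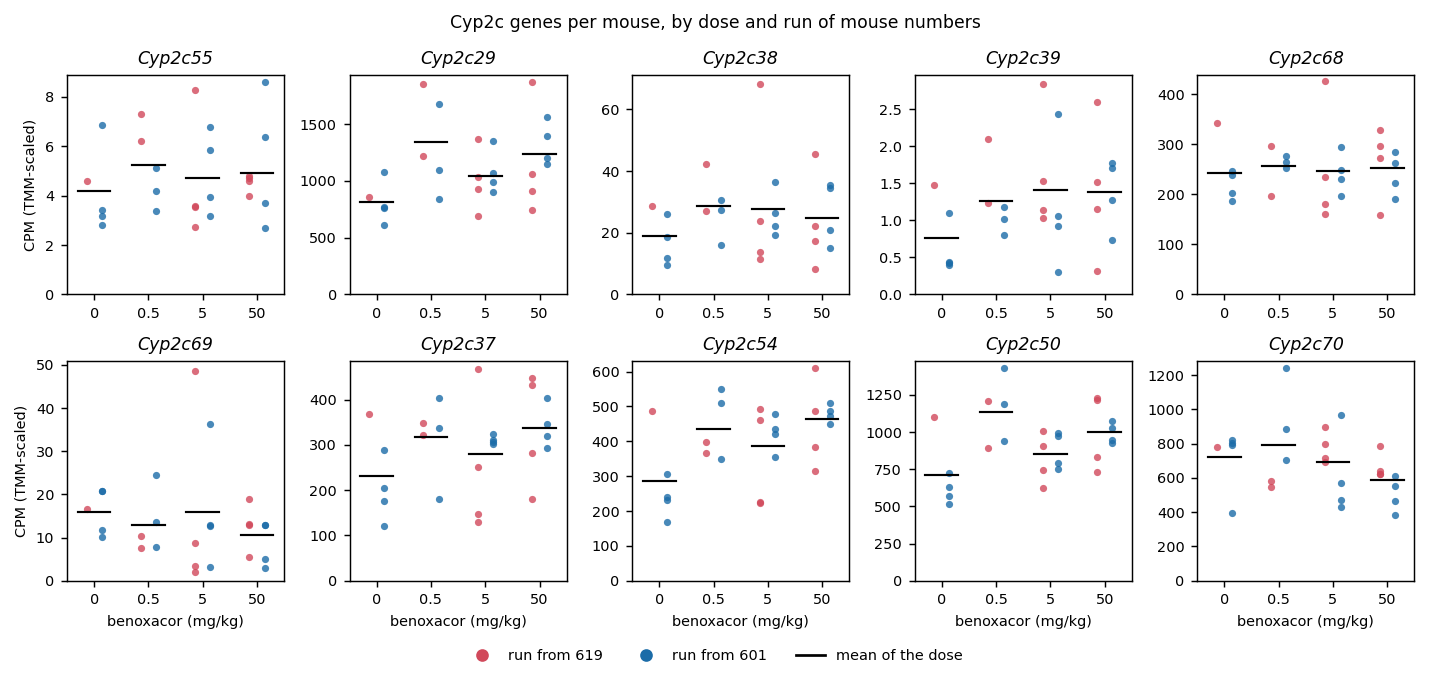
CPM (TMM-scaled) of each Cyp2c gene in each of 26 mice by benoxacor dose, with panels in chromosomal order; points are mice, coloured by run of mouse numbers, and the bar is the mean of the dose. The single 0 mg/kg mouse of the run from 619 is the highest control for Cyp2c37, Cyp2c38, Cyp2c39, Cyp2c50, Cyp2c54 and Cyp2c68.

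The runs gave different pictures of the same contrast. In the run from 619 the single 0 mg/kg mouse had 1103 CPM of Cyp2c50 and 487 CPM of Cyp2c54, and only 3 of 10 dosed mice lay above it for either gene. Dosed mice of that run spanned 625 to 1231 CPM of Cyp2c50 and 222 to 609 CPM of Cyp2c54. The number of these 10 dosed mice above the control was also 3 for Cyp2c37, Cyp2c38 and Cyp2c70. It was 2 for Cyp2c69, 1 for Cyp2c68, 5 for Cyp2c39 and Cyp2c55, and 8 for Cyp2c29. How often this occurs over all genes in the run from 619 was not counted. In the run from 601 all 11 dosed mice lay above all 4 controls for both genes: 749 to 1433 against 515 to 724 CPM of Cyp2c50, and 348 to 550 against 170 to 305 CPM of Cyp2c54. Of all genes tested, 0.305% had every dosed mouse above every control in the run from 601, and 2 of the 10 members did.

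With the run from 601 fitted alone, Cyp2c54 and Cyp2c50 passed the threshold. These genes are close copies, and the dose contrasts within runs were chosen after the values were seen. The calls are therefore neither separate observations nor independent support. At 0.5 against 0 mg/kg Cyp2c54 was 1.95-fold higher and Cyp2c50 1.91-fold higher (log2 0.96 and 0.93, both with an adjusted p of 0.0412 in edgeR), where 0.229% of all genes were called. At 5 against 0 mg/kg, with 0% called, the log2 values were 0.82 (SE 0.18, adjusted p 0.168) for Cyp2c54 and 0.51 (SE 0.17, adjusted p 0.443) for Cyp2c50. At 50 against 0 mg/kg Cyp2c54 was 2.02-fold higher (log2 1.02, SE 0.18, adjusted p 0.0404), where 0.0277% of all genes were called, and Cyp2c50 had a log2 value of 0.70 (SE 0.17, adjusted p 0.430). With the run from 619 alone, the values of Cyp2c54 were -0.35, -0.48 and -0.12 at 0.5, 5 and 50 against 0 mg/kg, with SEs from 0.46 to 0.52. Those of Cyp2c50 were -0.070, -0.42 and -0.14. There the lone control is assumed to vary like the other mice.

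The difference between the runs was tested in a fit with the product of dose and run, added after these values were seen. At every dose it rests on the same single 0 mg/kg mouse of the run from 619, which by itself gives no spread. The values at the different doses are therefore not separate observations. For Cyp2c54 the log2 fold change in the run from 619 minus that in the run from 601 was -1.34 (SE 0.49, adjusted p 0.0998) at 0.5 against 0 mg/kg, -1.31 (SE 0.44, adjusted p 0.397) at 5 and -1.14 (95% interval -2.04 to -0.23, adjusted p 0.973) at 50 mg/kg. For Cyp2c50 it was -1.03 (SE 0.40, adjusted p 0.116), -0.95 (SE 0.36, adjusted p 0.430) and -0.84 (SE 0.37, adjusted p 0.973) at these doses. No member passed, and of all genes 0.243%, 0% and 0% were called at 0.5, 5 and 50 against 0 mg/kg, while 3777, 1472 and 551 had an unadjusted p under 0.05. Across all doses, the run from 619 against the run from 601 gave member values from -0.02 (Cyp2c29) to 0.49 (Cyp2c39, SE 0.30), with 0 of 10 called where 0.0902% of genes were. The interaction of dose and run at 5 and 50 mg/kg, where each run has 4 mice per dose, called 0% of genes and no member.

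**Figure D4:**
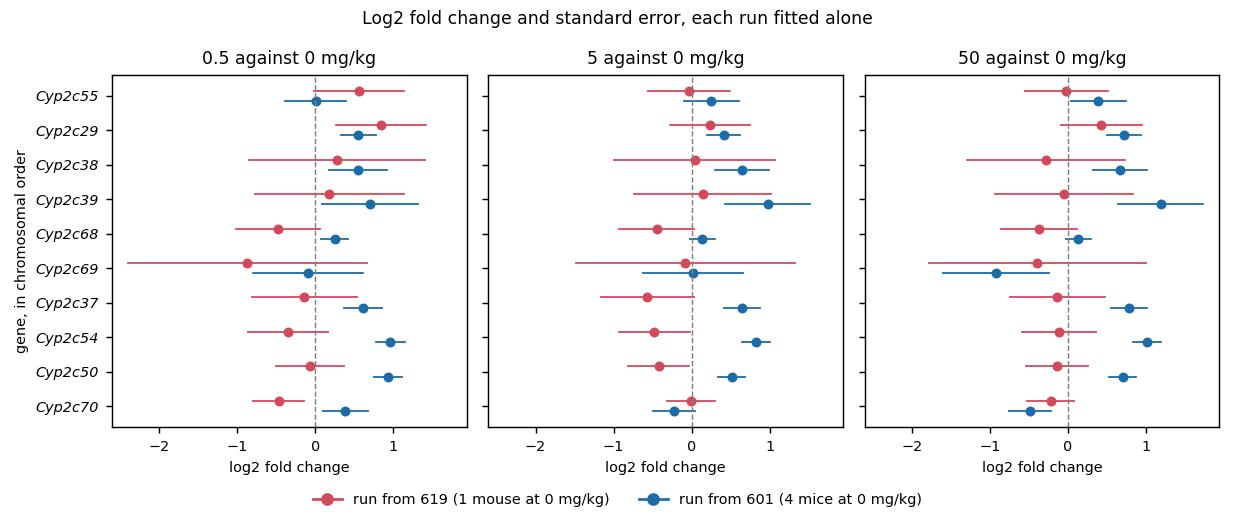
Log2 fold change and standard error of each Cyp2c gene at 0.5, 5 and 50 mg/kg against 0 mg/kg, with the run from 619 (1 control mouse) and the run from 601 (4 control mice) fitted alone. Cyp2c50 and Cyp2c54 lie above 0 in the run from 601 and below 0 in the run from 619 at each dose.

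Without the single 0 mg/kg mouse of the run from 619, the fit over the other 25 mice gave log2 fold changes of 1.06 (adjusted p 0.201) for Cyp2c54 and 0.73 (adjusted p 0.435) for Cyp2c50 at 50 against 0 mg/kg. Cyp2c37 gave 0.81 and Cyp2c29 0.62. The values of Cyp2c54, Cyp2c50 and Cyp2c37 thus moved by more than 1.5 times with this 1 mouse, and that of Cyp2c29 did not. At 5 against 0 mg/kg they were 0.80 for Cyp2c54 and 0.51 for Cyp2c50 without it, and at 0.5 mg/kg 0.93 for Cyp2c54. Other single mice moved smaller values as much. Cyp2c50 at 5 against 0 mg/kg was 0.16 without replicate 4 at 0 mg/kg, and Cyp2c38 at 50 against 0 mg/kg was 0.20 without replicate 2 at 0 mg/kg. Cyp2c55 at 50 against 0 mg/kg was 0.028 without replicate 3 at 50 mg/kg and 0.48 without replicate 4 at 0 mg/kg. Cyp2c70 at 0.5 against 0 mg/kg was -0.13 without replicate 2 at 0.5 mg/kg.

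Other measures also differed between the mice. The sum of the 8 hepatocyte markers, mostly Alb, ranged from 48108 to 63961 CPM at 0 mg/kg, from 45569.9 to 123356 at 0.5, from 51595 to 130344 at 5 and from 51634 to 110938 at 50 mg/kg. Of the 8 markers 5 were positive and 3 negative at 0.5 and at 50 against 0 mg/kg (median log2 fold changes 0.25 and 0.14), and 6 were positive at 5 mg/kg (median 0.27). Alb was the gene outside the set most like Cyp2c29 over the 26 mice (Pearson r 0.86). In bulk liver RNA a smaller share of hepatocytes and less RNA per hepatocyte cannot be told apart. Replicates 1 and 2 at 0.5 mg/kg had the highest sums of 7 acute phase genes (8192 and 12863 CPM), and replicate 2 was the highest of all mice for Cyp2c50 and Cyp2c70. Replicate 1 was instead the lowest mouse at 0.5 mg/kg for Cyp2c29 (845 CPM), Cyp2c37 (179) and Cyp2c54 (348). Replicate 8 at 5 mg/kg carried 3517 CPM of steroid-producing cell markers, against at most 30.4 elsewhere, and its Cyp2c37 and Cyp2c54 values, 130.4 and 222 CPM, were the lowest among dosed mice. The single 0 mg/kg mouse of the run from 619 had the highest sum of Cyp2b10 and Cyp3a11, 7374 CPM, against at most 5615 elsewhere. Its Cyp2b10 was 1.03 CPM. That mouse also had the highest sum of 6 small intestine epithelium markers (310.6 CPM), mostly Fabp2 (281.6). The part of these measures in the Cyp2c values was not tested.

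Sets of members varied together over the 26 mice, which was not compared with pairs drawn from all genes. Genes outside the set reached Pearson r values as high, such as Alb with Cyp2c29 (0.86) and Pon1 with Cyp2c50 (0.90). Of 45 pairs of members 35 had a positive Pearson r of log2(CPM + 0.5). In a permutation test with 100000 draws 15 passed an adjusted p of 0.05, all of them positive. By Spearman rho in the same test, Cyp2c70 also passed with negative values. Its rho was -0.505 with Cyp2c38 (adjusted p 0.0274), -0.478 with Cyp2c39 (adjusted p 0.0396) and -0.465 with Cyp2c29 (adjusted p 0.0428). Cyp2c37 and Cyp2c54 were the closest pair (Pearson r 0.89, p 1e-05, adjusted p 0.00018; Spearman rho 0.83, p 1e-05). That p is the smallest the draws can give. Without the 2 mice farthest from the median of Cyp2c37 r was 0.83, and within the runs from 619 and 601 it was 0.92 and 0.89. Cyp2c50 and Cyp2c54 followed (r 0.88, p 1e-05, adjusted p 0.00018; rho 0.83, p 1e-05), with 0.83 without the 2 farthest mice and 0.85 and 0.91 in these runs. These are close copies that share stretches of transcript, and whether split reads tie their counts was not tested.

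Cyp2c29, which shares no stretch of 100 bases with another member, was also correlated with Cyp2c50 (r 0.75, p 2e-05, adjusted p 0.00018; rho 0.68, p 0.00023). Without the 2 farthest mice r was 0.72, and within the runs from 619 and 601 it was 0.68 and 0.83. Cyp2c38 and Cyp2c39, which share 194 stretches of 50 bases but none of 100, gave r 0.73 (p 2e-05, adjusted p 0.00018; rho 0.64, p 0.00052), 0.62 without the 2 farthest mice, and 0.93 and 0.59 in the runs from 619 and 601. Cyp2c68 and Cyp2c69 gave r 0.72 (p 5e-05, adjusted p 0.000375; rho 0.65, p 0.00041), 0.64 without the 2 farthest mice, and 0.92 and 0.48 in the runs. Removing dose and run left these values between 0.63 for Cyp2c29 with Cyp2c50 and 0.89 for Cyp2c37 with Cyp2c54. Replicate 6 at 5 mg/kg was the highest mouse for Cyp2c37, Cyp2c38, Cyp2c39, Cyp2c68 and Cyp2c69, and without it Cyp2c68 with Cyp2c69 gave 0.65 and Cyp2c38 with Cyp2c39 gave 0.68.

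**Figure D5:**
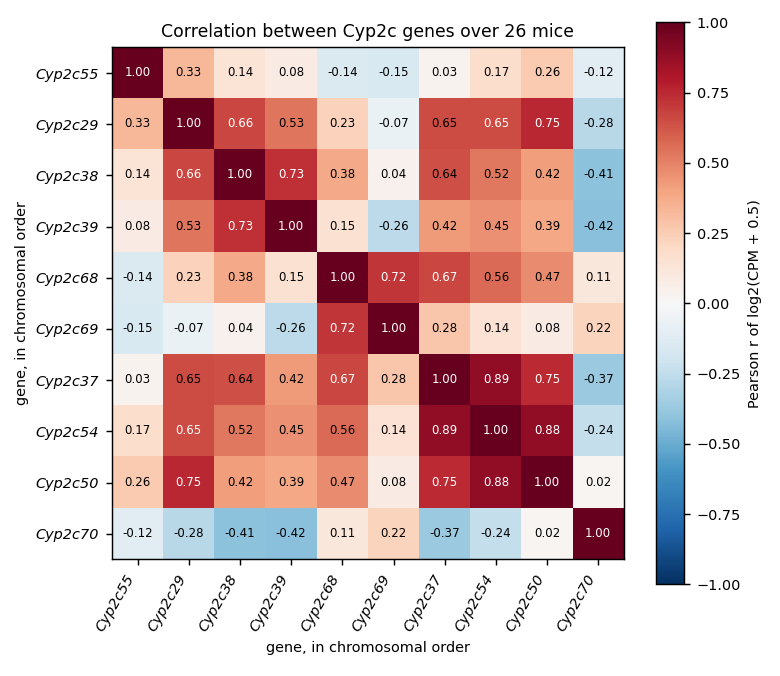
Pearson r between Cyp2c genes over 26 mice on log2(CPM + 0.5), with genes in chromosomal order on both axes. Cyp2c37, Cyp2c54 and Cyp2c50 form a block of 0.75 to 0.89, while the highest r of Cyp2c55 or Cyp2c70 with another member was 0.33. Cyp2c70 was negative with Cyp2c39 (-0.42) and Cyp2c38 (-0.41).

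Genes outside the set most like a member were ranked by Pearson r over the same mice, as a description. For Cyp2c50 it was Pon1, the serum paraoxonase made by the liver (0.90). Pon1 was also among the 3 genes most like Cyp2c54 (0.83). Cyp2c69 was most like its close copy Cyp2c40 (0.92), with which it shares the most sequence, and Cyp2c68 was most like Nfyb (0.77). For Cyp2c37 it was Mbl2 (0.79), for Cyp2c38 Enpp1 (0.82), for Cyp2c39 Cdo1 (0.75) and for Cyp2c55 Nme4 (0.62). For Cyp2c70 they were the nuclear RNA Neat1 (0.78), Mx2 (0.74) and Ifi47 (0.72).

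Related genes outside the set gave no call either at 50 against 0 mg/kg. Of 7 other Cyp2c symbols, 6 were in the count table and 4 could be tested. Their log2 fold changes ran from -0.24 (Cyp2c40, SE 0.53) to 0.98 (Cyp2c53-ps, SE 0.50). Cyp2c65 and Cyp2c66 were at 0 in most livers. Of 12 regulators and electron partners, 0 were called and 8 were positive. Nr1i3 had 0.50 (SE 0.25) and Por 0.49 (SE 0.25), while Nr1i2 had -0.14 (SE 0.16) and Hnf4a -0.05 (SE 0.14). Cyp2b10, the standard CAR target, had 2.09 (SE 0.63, adjusted p 0.721) at a mean of 3.56 CPM, and the PXR target Cyp3a11 had -0.18 (SE 0.25). The lower doses of 0.5 and 5 against 0 mg/kg gave 2.11 and 1.79 for Cyp2b10 and -0.076 and -0.45 for Cyp3a11, with 0 called. At 50 against 0 mg/kg 0 of 5 tested genes for epoxide handling and Cyp2j epoxygenases were called, among them the soluble epoxide hydrolase gene Ephx2 (0.13, SE 0.15). Of 6 bile acid enzymes beside Cyp2c70 0 were called; Cyp7a1, the first enzyme of the classic bile acid pathway, had 1.75 (SE 0.40, adjusted p 0.614). The 10 pericentral genes had a median of 0.13 and the 8 periportal genes 0.11, with 0 called in either list; Cyp2c29 and its copies are expressed mainly around the central vein.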

How the data were processed

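The deposited values are whole read counts for each gene, with no normalization. The submitters' processing notes list bcl2fastq, featureCounts and the mm10 build. The aligner, annotation and strand setting are not given in the sources used here. The per-mouse files equalled the combined table. The members, lists and rules were chosen with earlier results of these data known. Named genes were all 10 members, genes from fixed lists of relatives, regulators and markers, and the genes most like each member (up to 3 each; 1 is not reported here).

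Counts were filtered by filterByExpr (14415 genes, 99.7% of reads), TMM-scaled and fitted in edgeR 4.0.16 under R 4.3.3 (robust quasi-likelihood, dose and run, 26 mice, Benjamini-Hochberg over all genes, adjusted p 0.05). Within doses, 76 pairs of libraries differed by 12.0 to 124 in chi-square per degree of freedom, above sampling noise. P-values measure spread between these mice. Alternatives were limma-voom (limma 3.58.1), DESeq2 1.42.0, RLE scaling, no filter, no run term, each run alone, and mice left out. The tests were tested on simulated data. Positions are from GENCODE M21, start windows from RefSeq.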

Additional observations from a re-analysis of the deposited data

Results flagged for a closer look

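Values of the 10 genes were looked at within each dose, which made 40 groups of mice, for a highest or lowest mouse far from its neighbour by Dixon's 95% criterion. Chance flags about 1 in 20 groups, or 2.0 here, and 2 were found. Cyp2c38 had 68.3 CPM in replicate 6 at 5 mg/kg, with the next of the 8 mice at 36.4 CPM. Cyp2c70 had 397 CPM in replicate 3 at 0 mg/kg, with the next of the 5 mice at 780.4 CPM.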

How the results depend on the processing

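The signs of Cyp2c29, Cyp2c50 and Cyp2c54 at each dose against 0 mg/kg held under every alternative tried except, for Cyp2c50 and Cyp2c54, the run from 619 alone, and the 3 member calls were made by the run from 601 alone. The cause of each change was not tested. Depth limits Cyp2c39, with 2 to 23 reads, and shared sequence limits Cyp2c68 and Cyp2c69. Genes called at 50 against 0 mg/kg numbered 3 with DESeq2, 4 in the run from 601 alone, and 0 without the run term or in the run from 619 alone; leaving out 1 mouse gave 0 to 1. At 5 against 0 mg/kg they numbered 4 with DESeq2 and 0 to 3 leaving out 1 mouse. At 0.5 against 0 mg/kg they numbered 7 with DESeq2 and 33 in the run from 601 alone. For run from 619 against run from 601 they numbered 108 with DESeq2, 6 with limma-voom and 2 to 60 leaving out 1 mouse, where all mice gave 13. For any dose difference they numbered 0 without a filter or without the run term, and 0 to 4 leaving out 1 mouse. For the interaction of dose and run at 5 and 50 mg/kg leaving out 1 mouse gave 0 to 2. DESeq2 was not run for the last 2 comparisons. The members' values that changed sign were these. With the run from 619 alone, the log2 fold change was -0.021 for Cyp2c55, -0.28 for Cyp2c38, -0.051 for Cyp2c39, -0.38 for Cyp2c68, -0.14 for Cyp2c37, -0.12 for Cyp2c54, -0.14 for Cyp2c50, -0.13 for Cyp2c37+Cyp2c50+Cyp2c54 at 50 against 0 mg/kg, and -0.037 for Cyp2c55, -0.57 for Cyp2c37, -0.48 for Cyp2c54, -0.42 for Cyp2c50, -0.46 for Cyp2c37+Cyp2c50+Cyp2c54 at 5 against 0 mg/kg, and -0.19 for Cyp2c39, 0.055 for Cyp2c68+Cyp2c69 at 50 against 5 mg/kg, and -0.47 for Cyp2c68, -0.14 for Cyp2c37, -0.35 for Cyp2c54, -0.070 for Cyp2c50, -0.47 for Cyp2c70, -0.15 for Cyp2c37+Cyp2c50+Cyp2c54, -0.49 for Cyp2c68+Cyp2c69 at 0.5 against 0 mg/kg. Without replicates 6 and 8 at 5 mg/kg, the log2 fold change was -0.096 for Cyp2c55, 0.069 for Cyp2c38, 0.096 for Cyp2c68+Cyp2c69 at 50 against 5 mg/kg, and -0.29 for Cyp2c69, 0.015 for Cyp2c54 for run from 619 against run from 601, and 0.0020 for Cyp2c68+Cyp2c69 at 50 against 0 mg/kg. Without replicates 1 and 2 at 0.5 mg/kg, the log2 fold change was -0.041 for Cyp2c55, -0.0066 for Cyp2c37 for run from 619 against run from 601, and -0.0048 for Cyp2c39 at 50 against 5 mg/kg, and -0.044 for Cyp2c68, -0.35 for Cyp2c70, -0.074 for Cyp2c68+Cyp2c69 at 0.5 against 0 mg/kg. With the run from 601 alone, the log2 fold change was 0.026 for Cyp2c38, -0.0049 for Cyp2c68 at 50 against 5 mg/kg, and 0.14 for Cyp2c68, 0.019 for Cyp2c69, 0.13 for Cyp2c68+Cyp2c69 at 5 against 0 mg/kg, and 0.080 for Cyp2c68+Cyp2c69 at 50 against 0 mg/kg. With RLE size factors, the log2 fold change was -0.00035 for Cyp2c39 at 50 against 5 mg/kg. Without the run term, the log2 fold change was -0.0090 for Cyp2c39, 0.0015 for Cyp2c68+Cyp2c69 at 50 against 5 mg/kg, and 0.017 for Cyp2c68, 0.016 for Cyp2c68+Cyp2c69 at 5 against 0 mg/kg, and 0.018 for Cyp2c68+Cyp2c69 at 50 against 0 mg/kg. With limma-voom, the log2 fold change was -0.12 for Cyp2c69, -0.015 for Cyp2c37 for run from 619 against run from 601, and 0.037 for Cyp2c68+Cyp2c69 at 50 against 5 mg/kg. Leaving out 1 mouse at a time turned the sign of these values. At 50 against 5 mg/kg the range was -0.100 to 0.24 for Cyp2c55, -0.31 to 0.20 for Cyp2c38, -0.15 to 0.25 for Cyp2c39, -0.057 to 0.19 for Cyp2c68, -0.79 to 0.065 for Cyp2c69, -0.10 to 0.18 for Cyp2c68+Cyp2c69. For run from 619 against run from 601 the range was -0.080 to 0.15 for Cyp2c55, -0.11 to 0.037 for Cyp2c29, -0.025 to 0.31 for Cyp2c38, -0.43 to 0.28 for Cyp2c69, -0.094 to 0.13 for Cyp2c37, -0.20 to 0.049 for Cyp2c54, -0.063 to 0.11 for Cyp2c50, -0.10 to 0.044 for Cyp2c29+Cyp2c38+Cyp2c39, -0.10 to 0.095 for Cyp2c37+Cyp2c50+Cyp2c54. The range for the dose by run interaction at 5 and 50 mg/kg was -0.35 to 0.29 for Cyp2c55, -0.49 to 0.037 for Cyp2c29, -0.92 to 0.48 for Cyp2c38, -0.11 to 0.44 for Cyp2c68, -0.14 to 2.37 for Cyp2c69, -0.035 to 0.35 for Cyp2c54, -0.039 to 0.20 for Cyp2c50, -0.29 to 0.17 for Cyp2c70. At 50 against 0 mg/kg the range was -0.053 to 0.17 for Cyp2c68, -0.075 to 0.12 for Cyp2c68+Cyp2c69. At 5 against 0 mg/kg the range was -0.14 to 0.15 for Cyp2c68, -0.51 to 0.17 for Cyp2c69, -0.16 to 0.14 for Cyp2c68+Cyp2c69. At 0.5 against 0 mg/kg the range was -0.0066 to 0.19 for Cyp2c68, -0.13 to 0.25 for Cyp2c70, -0.017 to 0.16 for Cyp2c68+Cyp2c69.

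No paired analysis was possible because replicate numbers were given in accession order within each dose and do not link mice across doses.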

Other observations

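The 10 genes together took 0.280% to 0.466% of all counts in dosed mice of the run from 619, against 0.400% in its single 0 mg/kg mouse. In the run from 601 they took 0.329% to 0.481% in the 11 dosed mice, against 0.277% to 0.308% in the 4 mice at 0 mg/kg. The sum contains Cyp2c50 and Cyp2c54, described above, so it is not a separate observation. How many other sets of genes part these mice in the same way was not counted. These shares carry no scaling between libraries and were not tested.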
